A study of Mus musculus with 11 samples.

Results

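The genes described here are 38 antiviral genes that type I interferon is known to switch on, taken from a fixed list of gene symbols. The list was chosen with earlier results of these data known, so that counts and medians over it are descriptive. All 38 were present among the 22068 symbols measured, and all 38 had a mean of at least 1 RPKM (read counts scaled to transcript length and to library size), so that each was among the 10557 genes tested.

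They were measured by RNA sequencing of myeloid cells carrying CD11b, an integrin of macrophages, monocytes and neutrophils. The cells were enriched with antibody-coated magnetic beads from tumours under the skin of mice, taken on day 4 after local irradiation of the tumour with 15 Gy. The hosts were wild type (WT, n = 3 libraries), TLR9-/- (TLR9KO, n = 4) or MxCre/Stat3flox, labelled STAT3-/- (STAT3KO, n = 4), all with a C57BL/6 background. All groups were irradiated, and the tumour line is not given in the sources used here. TLR9 is an endosomal receptor for CpG DNA whose signalling can induce type I interferon, and STAT3 is a transcription factor activated by cytokine receptors. The MxCre transgene places the Cre recombinase under the promoter of Mx1, itself an interferon-stimulated gene. How Cre was switched on, and whether any WT mouse carried it, is not given in the sources used here, so that loss of Stat3 cannot be told apart from effects of the transgene or its induction. Whether the libraries of a group came from separate animals is not stated either, so that p-values measure the spread between these libraries, which may be technical.

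Type I interferons bind the receptor made of Ifnar1 and Ifnar2, whose kinases activate transcription factors. These bind the interferon-stimulated response element in the promoters of target genes. The products block the entry, transcription, translation or release of viruses, and in myeloid cells the same response follows the sensing of DNA or RNA from dying cells.

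The labels were checked first on the targeted genes. Stat3 was 15.7 to 19.7 RPKM in STAT3KO against 58.5 to 76.1 RPKM in the other 7 libraries. Tlr9 was 3.53 to 7.70 RPKM in TLR9KO against 19.2 to 61.0 RPKM elsewhere. Itgam, which encodes the CD11b used for enrichment, was 294 to 313 RPKM in WT and 191 to 228 RPKM in STAT3KO, without overlap. In TLR9KO it was 328 RPKM in replicate 1 and 177 to 237 RPKM in the other 3 libraries. The part of this difference in the results below was not tested. Read depth, estimated from the steps of low values, ran from about 30000000 to 53450000 reads and was lowest in WT replicate 1. At that depth the lowest member value rested on about 43 reads, for Oas1b.

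The response element was searched in promoters because the members share a known regulator. RefSeq promoters of build GRCm38.p6 (the expression files rest on mm9), from 250 bases before to 50 bases after a transcript start, were matched by symbol to 29 of the 38 genes. Oas1b, Oas2, Mx1, Mx2, Usp18, Parp9, Parp14, Rtp4 and Ifi27l2a were not matched. The core of the element was searched as GAAA, any 2 bases and GAAA again, on both strands (TTTC, any 2 bases and TTTC on the other), with overlapping matches allowed. It was found in 12 of the 29 genes (41.4%), against 3.99% of the 27025 genes with a promoter of the same length and 4.01% of the 7554 tested genes that were matched. The 12 were Ifit1, Ifit3, Oas1a, Oas1g, Oas3, Isg15, Ifitm2, Ifitm3, Bst2, Eif2ak2, Rsad2 and Lgals9. A match describes letters in this window and not a binding site. Of the 12 genes with a match, 6 passed the test in at least 1 comparison below and 6 did not, and of the 17 without one, 8 passed and 9 did not. The 160 bases before the start of 8 genes are shown as examples of each kind, chosen after the calls were known. Ifit3, Isg15 and Bst2 have a match and passed, Oas3 and Rsad2 have one and did not pass, and Samd9l, Ifi44 and Ifitm1, the member that fell, passed without one. They are printed 5′ to 3′ on the gene's strand, with matches in capitals.

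Ifit3, chr19:34583369-34583528, plus strand: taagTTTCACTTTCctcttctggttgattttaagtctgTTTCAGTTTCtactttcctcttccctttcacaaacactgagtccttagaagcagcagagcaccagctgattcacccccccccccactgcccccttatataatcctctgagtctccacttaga
Isg15, chr4:156200819-156200978, minus strand: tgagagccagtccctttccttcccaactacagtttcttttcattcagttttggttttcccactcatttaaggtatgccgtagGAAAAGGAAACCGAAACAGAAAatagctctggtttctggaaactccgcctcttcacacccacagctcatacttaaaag
Bst2, chr8:71537473-71537632, minus strand: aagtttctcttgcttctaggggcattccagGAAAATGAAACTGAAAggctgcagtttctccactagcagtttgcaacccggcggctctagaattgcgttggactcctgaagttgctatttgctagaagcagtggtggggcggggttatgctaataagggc
Oas3, chr5:120777660-120777819, minus strand: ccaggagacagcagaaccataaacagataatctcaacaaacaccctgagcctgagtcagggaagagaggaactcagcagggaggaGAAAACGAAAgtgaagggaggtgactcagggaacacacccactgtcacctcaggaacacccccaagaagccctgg
Rsad2, chr12:26456453-26456612, minus strand: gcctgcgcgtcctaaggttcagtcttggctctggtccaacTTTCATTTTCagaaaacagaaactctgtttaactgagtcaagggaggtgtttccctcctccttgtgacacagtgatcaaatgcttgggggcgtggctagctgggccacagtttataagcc
Samd9l, chr6:3399572-3399731, minus strand: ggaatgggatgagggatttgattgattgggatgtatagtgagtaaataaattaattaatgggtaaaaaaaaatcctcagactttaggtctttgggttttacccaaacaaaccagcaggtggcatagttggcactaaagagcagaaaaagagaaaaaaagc
Ifi44, chr3:151749911-151750070, minus strand: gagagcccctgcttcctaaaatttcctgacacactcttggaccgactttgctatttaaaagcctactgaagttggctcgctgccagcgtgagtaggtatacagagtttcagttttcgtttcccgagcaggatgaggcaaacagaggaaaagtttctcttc
Ifitm1, chr7:140967916-140968075, plus strand: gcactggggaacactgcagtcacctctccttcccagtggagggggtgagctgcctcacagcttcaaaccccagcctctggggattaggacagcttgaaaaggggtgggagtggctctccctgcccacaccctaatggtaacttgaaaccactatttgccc

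Ifit3 held 2 separate matches, both on the strand opposite the gene. The 3 matches of Isg15 and the 2 of Bst2 ran into each other on the gene's own strand. Rsad2 and Oas3 held 1 match each, and Samd9l, Ifi44 and Ifitm1 held 0.

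The members were on average higher in both knockouts than in WT, and uneven within WT and STAT3KO. The mean of log2(RPKM + 1) over the 38 genes was 4.55, 5.18 and 5.18 in the WT libraries, 5.39, 5.53, 5.66 and 5.38 in TLR9KO and 5.44, 5.23, 6.05 and 5.43 in STAT3KO. Every knockout library lay above every WT library, and the 2 knockout groups overlapped. The group means were 4.97 ± 0.36 (SD) in WT, 5.49 ± 0.13 in TLR9KO and 5.54 ± 0.35 in STAT3KO, differences of 0.52 and 0.57 from WT. Without WT replicate 1 these differences were 0.31 and 0.36. The same mean over all tested genes lay between 3.59 and 3.71 in the 11 libraries.

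**Figure D1:**
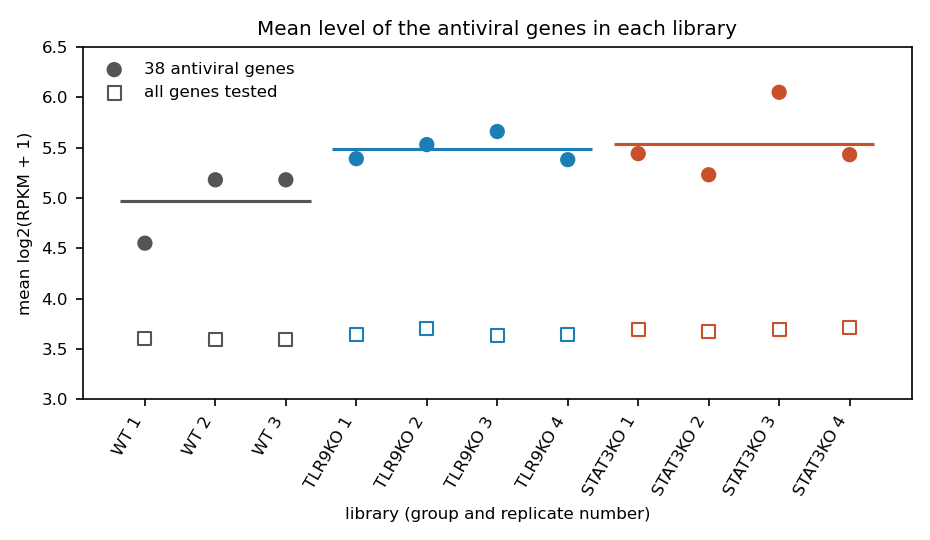
Mean log2(RPKM + 1) per library (vertical axis) for the 38 antiviral genes (filled circles) and all 10557 tested genes (open squares), with a line at each group's mean over the 38 genes. WT replicate 1 is the lowest at 4.55 and STAT3KO replicate 3 the highest at 6.05, while the squares stay between 3.59 and 3.71.

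Single libraries stood apart in these genes. WT replicate 1 was the lowest of the 11 libraries for 33 of the 38 members (86.8%), against 13.8% of all tested genes. STAT3KO replicate 3 was the highest of the 11 for 28 members (73.7%), against 9.36% of all tested genes. In TLR9KO, replicate 3 was the highest of its group for 27 members (71.1%), against 31.5% of all tested genes. The median SD of a member within its group was 0.42 (log2) in WT, 0.20 in TLR9KO and 0.38 in STAT3KO, against 0.16, 0.16 and 0.14 over all tested genes. Results are therefore given with and without WT replicate 1, the library on which most calls against WT turned.

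**Figure D2:**
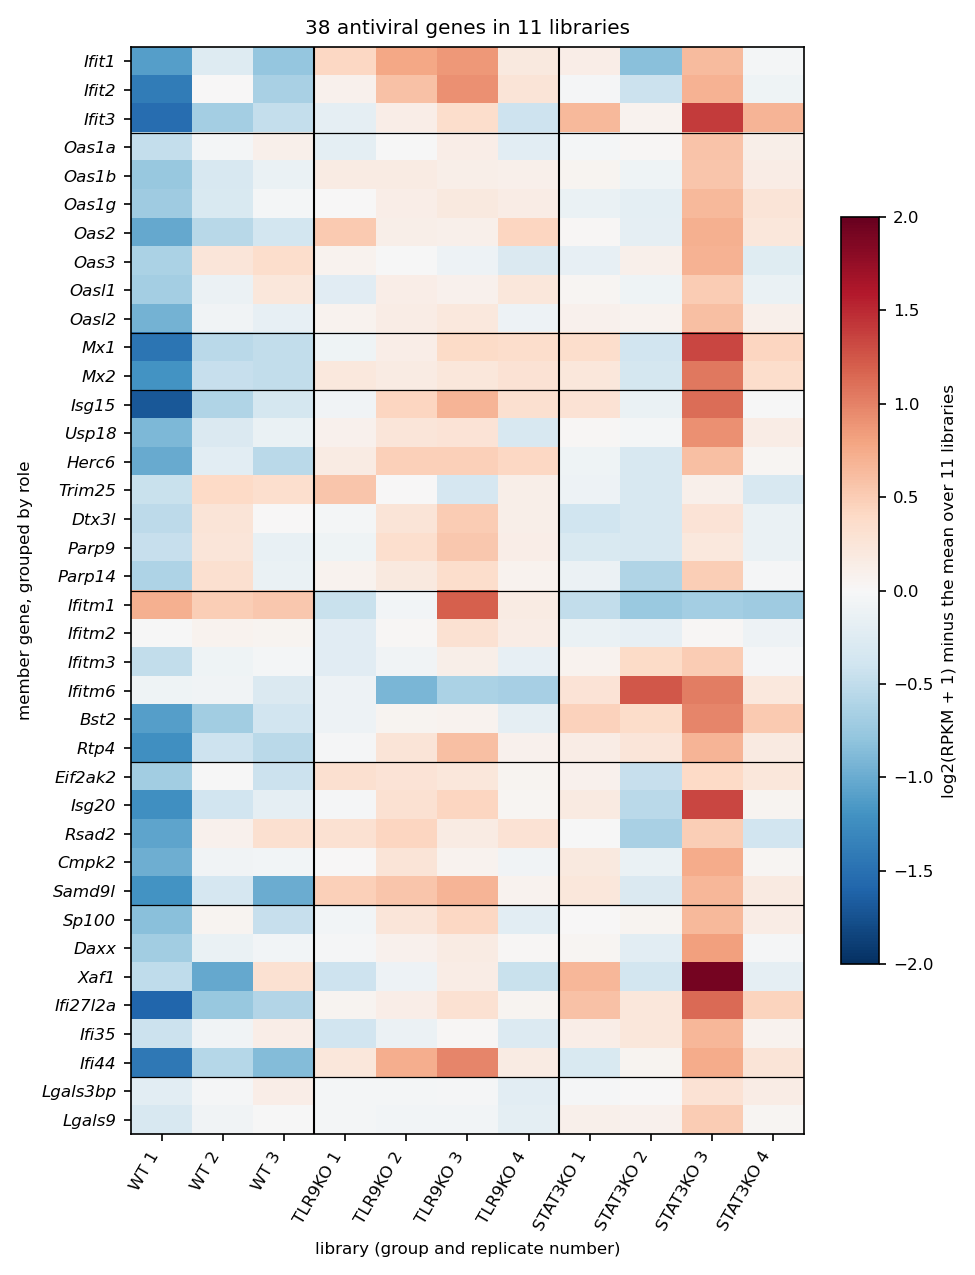
Each member (rows, grouped by role) in each library (columns), coloured by log2(RPKM + 1) minus that gene's mean over the 11 libraries, from blue (lower) to red (higher). The column of WT replicate 1 is the lowest for 33 of 38 members and that of STAT3KO replicate 3 the highest for 28, while Ifitm1 and Ifitm6 depart from the common pattern.

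In bulk RNA a change in the number of cells of a type and a change in RNA per cell cannot be told apart. Summed markers of cell types moved with the members in some libraries and against them in others. The 7 monocyte markers summed to 359, 644 and 664 RPKM in WT replicates 1, 2 and 3. In TLR9KO they summed to 652, 836, 1283 and 697 RPKM, and in STAT3KO to 905, 2532, 2768 and 840.3 RPKM. Their lowest library was thus WT replicate 1 and their highest STAT3KO replicate 3, as for the members, but STAT3KO replicate 2, nearly as high, had the lowest member mean of its group. Ly6c2 gave 1793 of the 2768 RPKM in STAT3KO replicate 3, and Chi3l3 1043 of the 2532 RPKM in STAT3KO replicate 2. Of these 7 genes 2 rose in STAT3KO and 1, Vcan, fell by 1.35 ± 0.47 (limma adjusted p = 0.0388). Over all tested genes 29.2% rose and 14.8% fell. In TLR9KO 0 of the 7 passed the limma test (1 higher and 1 lower at an unadjusted p under 0.05). Over all tested genes 20.0% rose and 10.6% fell in TLR9KO, and 26.3% and 16.2% did so at an unadjusted p under 0.05. The 9 T and NK cell markers summed to 5.49 RPKM in WT replicate 1 against 12.8 and 31.3 RPKM in the other WT libraries. In TLR9KO they summed to 2.13, 3.67, 18.9 and 5.56 RPKM, and in STAT3KO to 4.92, 7.30, 23.7 and 4.44 RPKM. Replicate 3 was thus the highest of each knockout group, but the highest of the 11 libraries was WT replicate 3. Macrophage markers gave sums of 4470 to 5580 RPKM in WT, of 4890 to 7980 in TLR9KO and of 7770 to 11400 in STAT3KO. The monocyte and macrophage sums of STAT3KO did not overlap WT, while those of TLR9KO did. Of the 9 macrophage genes 6 rose and 1 fell in STAT3KO, and in TLR9KO 0 passed the limma test (1 higher and 1 lower at an unadjusted p under 0.05). Of the plasmacytoid dendritic cells, known as strong interferon producers, Siglech was at most 0.11 RPKM in every library, and the 8 markers together gave 6.43 to 9.92 RPKM in WT, 5.09 to 6.73 in TLR9KO and 8.24 to 13.0 in STAT3KO. Melanocyte markers summed to 454 to 1450 RPKM in WT, 488 to 1390 in TLR9KO and 834 to 1280 in STAT3KO, and were highest in WT replicate 1, where the member mean was lowest. Fibroblast markers summed to 2.18 to 4.49 RPKM in WT, 11.6 to 42.8 in TLR9KO and 15.6 to 31.0 in STAT3KO, so that neither knockout overlapped WT, as for many members, and all 4 tested of the 6 genes rose in both knockouts. The lists of neutrophils (56.9 to 172, 67.5 to 247 and 79.8 to 620 RPKM in WT, TLR9KO and STAT3KO), conventional dendritic cells (25.1 to 48.4, 21.7 to 58.7 and 15.6 to 54.5 RPKM) and endothelial cells (7.80 to 22.0, 6.71 to 15.2 and 4.53 to 8.02 RPKM) overlapped WT. The neutrophil sum of 620 RPKM was that of STAT3KO replicate 2, against 79.8, 88.6 and 106 RPKM in STAT3KO replicates 1, 3 and 4. B cell markers summed to 0.62 to 0.82 RPKM in WT, 0.71 to 1.61 in TLR9KO and 1.7 to 4.67 in STAT3KO, which did not overlap WT, and Cd79b, the 1 gene tested of 5, rose there by 1.46 (limma adjusted p = 0.000622). Erythroid and platelet markers did not move alike. The 4 globin genes fell in both knockouts, Hba-a1 from 21.6 to 82.5 RPKM in WT to 0.31 to 1.44 in TLR9KO and 1.42 to 26.1 in STAT3KO. Of the platelet genes, Pf4 rose by 1.91 in STAT3KO (limma adjusted p = 0.00797), while Ppbp differed by -0.83 ± 0.96 and did not pass (adjusted p = 0.51). Elane (neutrophils) and Pax5 (B cells) were at 0 in all TLR9KO libraries. Their part in the results below was not tested.

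Compared with WT, STAT3KO cells had higher levels of 17 members, from each class except the galectin-related genes, and a lower level of 1, Ifitm1 (limma, adjusted p at most 0.05). Over all tested genes 29.2% rose and 14.8% fell (44.0% in either direction), so that the members' share of 44.7% higher is read against 29.2%. The median log2 difference of the 38 members was 0.59, against 0.09 over all tested genes, and 33 members were above 0, against 59.1%. The groups did not overlap for 16 members that were higher and 1 that was lower, against 30.8% and 16.9% of all tested genes. With median-ratio scaling of the libraries the calls over all genes were 52.7% higher, against 66.3% unscaled, and the member median was 0.51. Under it the calls of Oasl2, Usp18, Herc6, Ifitm3 and Sp100 in STAT3KO and of Mx1 and Eif2ak2 in TLR9KO were lost. Without STAT3KO replicate 3, 12 members passed, the median was 0.45 and 26.3% of all tested genes rose.

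TLR9KO cells had higher levels of 14 members than WT cells, while 0 were lower (limma; at an unadjusted p under 0.05, 18 were higher and 0 lower, against 26.3% and 16.2% of all tested genes). Over all tested genes 20.0% rose and 10.6% fell (30.6% in either direction). The member median was 0.49, against 0.04 over all tested genes, and 32 members were above 0, against 53.5%. For 18 members the groups did not overlap, with TLR9KO the higher, and for 0 the lower, against 22.8% and 13.3% of all tested genes. Both comparisons use the same 3 WT libraries, and so share whatever is particular to them.

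Between the knockouts few members differed. Ifitm6 and Bst2 were higher and Ifitm1 lower in STAT3KO than in TLR9KO, and 35 members did not pass (limma), where 13.4% of all tested genes were higher and 9.46% lower (22.8% in either direction). At an unadjusted p under 0.05, 5 members were higher and 1 lower, against 22.7% and 14.3% of all tested genes. The groups did not overlap for 5 that were higher and 1 that was lower, against 16.4% and 10.6%. The member median was 0.08, against 0.06 over all tested genes, and 23 members were above 0, against 59.4%. Without STAT3KO replicate 3 it was -0.12. Calls over all genes were 58.5% higher in STAT3KO as measured and 46.3% higher with median-ratio scaling. Ordered by group mean, 20 members ran WT, TLR9KO, STAT3KO from low to high and 9 ran WT, STAT3KO, TLR9KO.

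WT replicate 1 carried many of the calls against WT. Without it, 8 members were higher and 1 lower in STAT3KO, and the calls of Oas1b, Oasl2, Mx1, Mx2, Isg15, Usp18, Herc6, Ifitm3 and Sp100 were lost. The member median was then 0.35, and 23.6% of all tested genes rose. In TLR9KO 6 members were higher without it, and the calls of Ifit1, Ifit2, Oas1b, Mx1, Mx2, Isg15, Bst2 and Eif2ak2 were lost. There the median was 0.24, and 13.1% of all tested genes rose. A correction of each library for GC content and length also lowered the counts, to 9 higher and 2 lower in STAT3KO and to 6 higher in TLR9KO. It ended the calls of Oas1b, Oasl2, Isg15, Usp18, Herc6, Ifitm3, Ifitm6 and Sp100 in STAT3KO, where Ifitm2 was the second lower gene, and of Ifit1, Ifit2, Oas1b, Mx1, Isg15, Herc6, Bst2 and Eif2ak2 in TLR9KO. Under it 20.1% and 8.96% of all tested genes rose, and the member medians were 0.38 and 0.40. Under each of the 16 alternatives, the calls of Ifit3, Oas2, Ifitm1, Bst2, Rtp4, Samd9l, Ifi27l2a and Ifi44 in STAT3KO and of Oas2, Rtp4, Samd9l and Ifi44 in TLR9KO were kept.

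**Figure D3:**
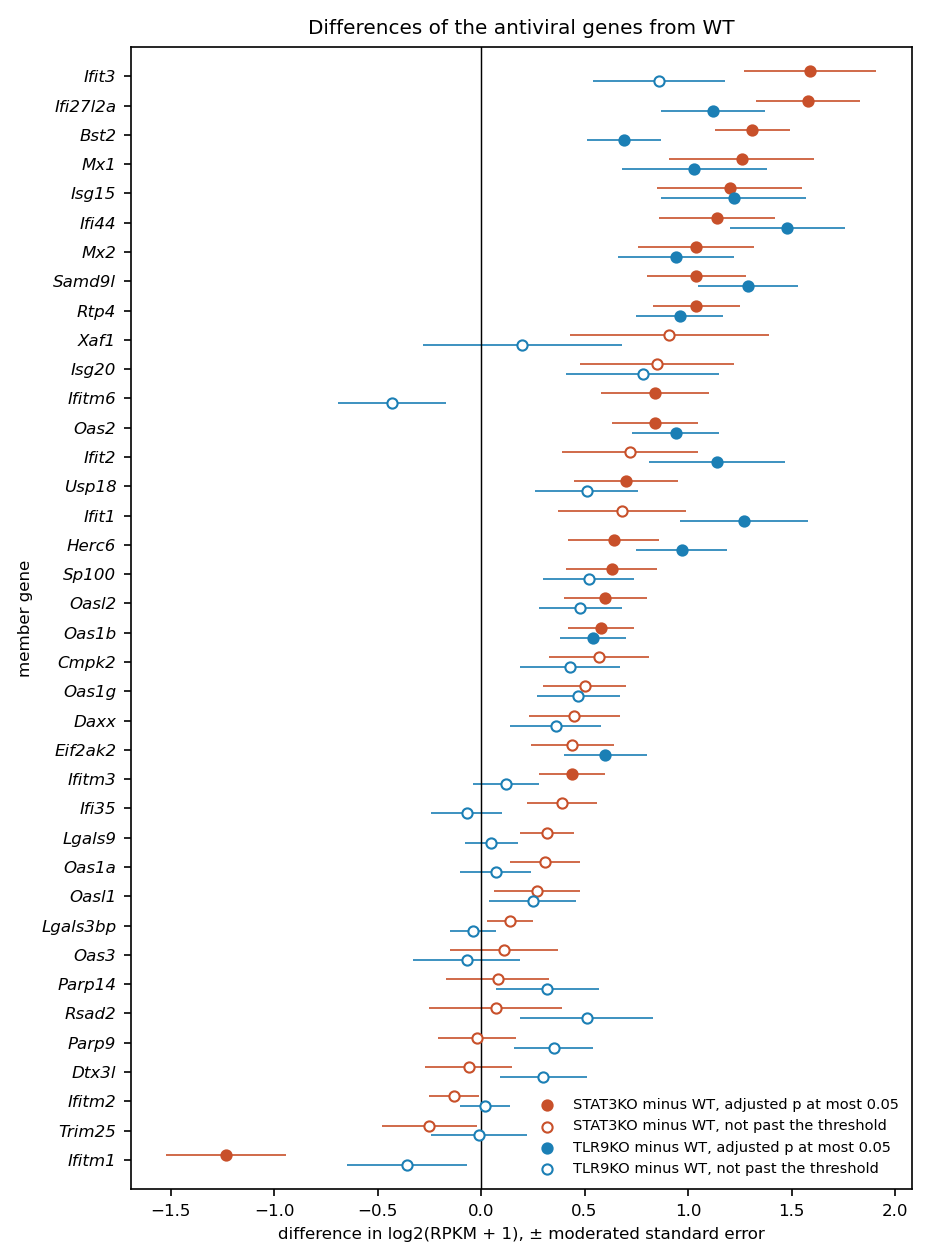
Difference from WT in log2(RPKM + 1) for each of the 38 genes (horizontal axis), STAT3KO in orange and TLR9KO in blue, with the moderated standard error. Filled points passed an adjusted p of 0.05; 17 genes lie filled to the right and 1, Ifitm1, filled to the left in STAT3KO, and 14 to the right in TLR9KO.

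The IFIT proteins bind viral RNA and block its translation. Ifit1, which recognises RNA without the host's cap methylation, was 7.47, 14.1 and 9.60 RPKM in WT, 23.0, 30.1, 31.9 and 19.6 RPKM in TLR9KO and 18.9, 9.13, 27.0 and 16.5 RPKM in STAT3KO. Every TLR9KO library lay above WT, and STAT3KO replicate 2 lay within the WT range. The mean in TLR9KO was 2.52 times that of WT, a log2 difference of 1.27 ± 0.31 (limma adjusted p = 0.0108), and the difference in STAT3KO was 0.68 ± 0.31 (adjusted p = 0.0984). Ifit2 was 16.8, 45.8 and 29.0 RPKM in WT, 48.9, 69.4, 87.3 and 55.0 RPKM in TLR9KO and 45.2, 33.9, 74.4 and 43.3 RPKM in STAT3KO. It had the same layout, rising by 1.14 ± 0.33 in TLR9KO (limma adjusted p = 0.0236), with 3 STAT3KO libraries within the WT range. This call was also lost without WT replicate 3, TLR9KO replicate 2 or TLR9KO replicate 3.

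Ifit3, a partner of Ifit1, was 29.8, 54.2 and 62.5 RPKM in WT, 77.3, 95.7, 111 and 65.3 RPKM in TLR9KO and 137, 91.4, 233 and 140.2 RPKM in STAT3KO. All knockout libraries lay above WT. It rose by 1.59 ± 0.32 in STAT3KO, the largest difference among the members (limma adjusted p = 0.00234), and its difference of 0.86 ± 0.32 in TLR9KO did not pass (adjusted p = 0.0602). Between the knockouts Ifit3 differed by 0.73 ± 0.29 and Ifit1 by -0.59 ± 0.29 (STAT3KO minus TLR9KO, limma adjusted p = 0.0983 and 0.16). An opposite order of Ifit3 and Ifit1 was thus not established.

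**Figure D4:**
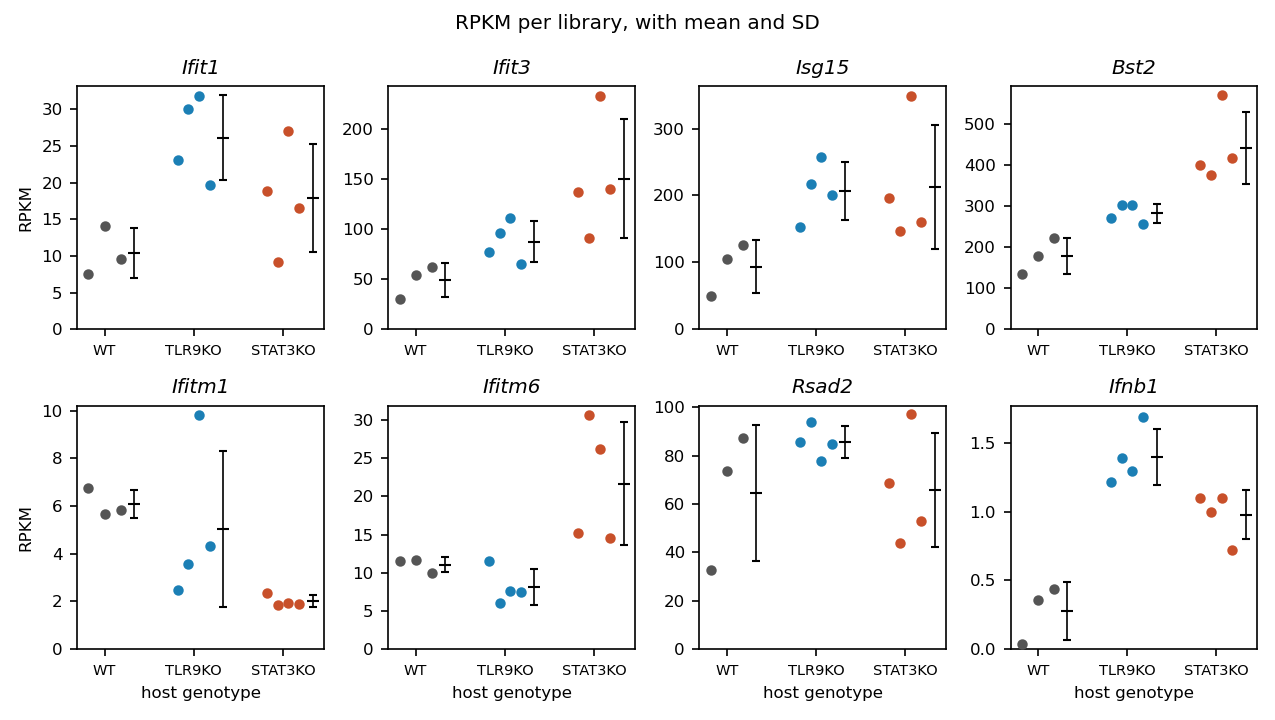
RPKM per library (dots) with the group mean and SD (bars) for 7 members and for Ifnb1; each panel starts at 0. Ifit1 is highest in TLR9KO and Ifit3 in STAT3KO, the 3 groups of Bst2 do not overlap, and all 8 knockout libraries of Ifnb1 lie above WT.

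The oligoadenylate synthetases sense double-stranded RNA and activate RNase L, and the Oasl genes encode related proteins. Of 7 such genes, 3 rose in STAT3KO and 2 in TLR9KO, and none fell. Over all tested genes 29.2% rose in STAT3KO and 20.0% in TLR9KO, so that these counts are not read as a result about the family. Oas2 was 8.23, 11.8 and 13.6 RPKM in WT, 25.9, 19.4, 19.2 and 24.3 RPKM in TLR9KO and 18.1, 15.6, 29.9 and 20.9 RPKM in STAT3KO. No knockout library overlapped WT, and Oas2 rose by 0.94 ± 0.21 in TLR9KO and 0.84 ± 0.21 in STAT3KO (limma adjusted p = 0.00777 and 0.00881).

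Oas1b, whose C57BL/6 allele is known to encode a truncated protein, was the lowest member, at 0.78, 1.40 and 1.73 RPKM in WT, 2.36, 2.37, 2.25 and 2.24 RPKM in TLR9KO and 2.14, 1.84, 3.41 and 2.34 RPKM in STAT3KO. Its groups did not overlap WT, with differences of 0.54 ± 0.16 and 0.58 ± 0.16 (limma adjusted p = 0.0286 and 0.0154). The TLR9KO call was also lost without TLR9KO replicate 2, 3 or 4. Oasl2 was 44.0, 81.0 and 76.3 RPKM in WT, 90.1, 94.7, 99.5 and 79.5 RPKM in TLR9KO and 90.5, 89.3, 129.7 and 91.9 RPKM in STAT3KO. It rose by 0.60 ± 0.20 in STAT3KO (limma adjusted p = 0.0315), a call that was also lost without STAT3KO replicate 3, and TLR9KO replicate 4 lay within the WT range. The abundant Oas1a, with Oas1g, Oas3 and Oasl1, passed in no comparison, and their differences from WT ran from -0.07 to 0.50. Oas1a, Oas1b and Oas1g are close copies, and how reads matching several of them were counted is not given in the sources used here.

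Mx proteins are GTPases that trap viral capsids, and C57BL/6 mice are known to carry a defective Mx1. Mx1 was 7.14, 14.5 and 15.0 RPKM in WT, 20.2, 23.6, 28.3 and 27.9 RPKM in TLR9KO and 27.6, 16.2, 55.8 and 29.2 RPKM in STAT3KO. Mx2 was 1.14, 2.56 and 2.51 RPKM in WT, 4.67, 4.51, 4.73 and 5.03 RPKM in TLR9KO and 4.76, 2.84, 9.20 and 5.29 RPKM in STAT3KO. Both genes were higher in every knockout library than in WT, with STAT3KO replicate 2 closest to WT. In STAT3KO, Mx1 rose by 1.26 ± 0.35 and Mx2 by 1.04 ± 0.28 (limma adjusted p = 0.0131 and 0.0108). In TLR9KO, Mx1 rose by 1.03 ± 0.35 and Mx2 by 0.94 ± 0.28 (limma adjusted p = 0.0447 and 0.0247). The TLR9KO calls were also lost without TLR9KO replicate 4, and that of Mx1 without WT replicate 3, TLR9KO replicate 2 or TLR9KO replicate 3.

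Isg15 is a ubiquitin-like protein, Usp18 removes it and dampens the interferon receptor, and Herc6 attaches it in mice. Isg15 was 49.0, 106 and 126 RPKM in WT, 153, 217, 257 and 200.2 RPKM in TLR9KO and 196, 147, 349 and 160.1 RPKM in STAT3KO. All knockout libraries lay above WT, with means 2.21 and 2.28 times that of WT and differences of 1.22 ± 0.35 in TLR9KO and 1.20 ± 0.35 in STAT3KO (limma adjusted p = 0.0224 and 0.0173). The TLR9KO call was also lost without TLR9KO replicate 2 or TLR9KO replicate 3. Usp18 was 21.9, 34.0 and 38.2 RPKM in WT, 44.4, 49.6, 50.8 and 33.4 RPKM in TLR9KO and 42.4, 40.7, 80 and 46.6 RPKM in STAT3KO. It rose by 0.70 ± 0.25 in STAT3KO (limma adjusted p = 0.0414) and overlapped WT in TLR9KO. The call was also lost without WT replicate 2, STAT3KO replicate 3 or STAT3KO replicate 4. Herc6 was 3.02, 5.97 and 4.57 RPKM in WT, 8.02, 10.3, 10.3 and 9.84 RPKM in TLR9KO and 6.60, 5.48, 11.2 and 7.31 RPKM in STAT3KO. It rose by 0.97 ± 0.22 in TLR9KO, without overlap, and by 0.64 ± 0.22 in STAT3KO, where replicate 2 lay within the WT range (limma adjusted p = 0.00743 and 0.034). The STAT3KO call was also lost without WT replicate 3, STAT3KO replicate 3 or STAT3KO replicate 4.

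The ubiquitin ligases Trim25 and Dtx3l and the ADP-ribosyltransferase family members Parp9 and Parp14 passed in no comparison. Their differences from WT ran from -0.25 to 0.08 in STAT3KO and from -0.01 to 0.35 in TLR9KO. Parp14, Dtx3l and Parp9 lie next to each other on chromosome 16 in the RefSeq gene order.

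The IFITM proteins sit in endosomal and surface membranes and hinder viral entry. Ifitm2, Ifitm1, Ifitm3 and Ifitm6 follow each other on chromosome 7 in the RefSeq gene order, and they did not change alike. Ifitm1 was 6.76, 5.65 and 5.85 RPKM in WT, 2.48, 3.55, 9.80 and 4.32 RPKM in TLR9KO and 2.36, 1.84, 1.95 and 1.90 RPKM in STAT3KO. All STAT3KO libraries lay below the other 7, while TLR9KO had 3 libraries below WT and 1, replicate 3, above it. The STAT3KO mean was 0.33 times that of WT, and Ifitm1 fell by 1.23 ± 0.29 (log2; limma adjusted p = 0.00575), from about 53 reads in the lowest library. Against TLR9KO the difference was -0.87 ± 0.27 (limma adjusted p = 0.039), a call lost without any 1 of TLR9KO replicates 2 and 4 and the 4 STAT3KO replicates, at an adjusted p of up to 0.0848.

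Ifitm6, another member of this family, was 11.6, 11.7 and 9.95 RPKM in WT, 11.5, 6.08, 7.65 and 7.43 RPKM in TLR9KO and 15.2, 30.6, 26.3 and 14.5 RPKM in STAT3KO. STAT3KO lay above both other groups throughout. The difference was 1.27 ± 0.24 against TLR9KO (2.65-fold, limma adjusted p = 0.00467), and it passed under all 17 alternatives, and 0.84 ± 0.26 against WT (adjusted p = 0.0215). Against WT it no longer passed without WT replicate 3, without STAT3KO replicate 3 or with the GC and length correction. The libraries highest for Ifitm6, STAT3KO replicates 2 and 3, were also the 2 with the highest monocyte marker sums, and the part of those cells was not tested.

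Ifitm3, the most abundant member, was 667, 883 and 912 RPKM in WT, 802, 891, 1013 and 837 RPKM in TLR9KO and 986, 1217, 1335 and 919 RPKM in STAT3KO. It rose by 0.44 ± 0.16 in STAT3KO (limma adjusted p = 0.047), a call lost without any 1 of the libraries of both groups except STAT3KO replicate 4. With the GC and length correction its difference was -0.04 (adjusted p = 0.88), so that no direction can be given. Ifitm2 was 251, 265 and 262 RPKM in WT, 216, 256, 312 and 279.6 RPKM in TLR9KO and 230.2, 225, 256 and 235 RPKM in STAT3KO, and did not pass in any comparison as measured. With the GC and length correction the difference Ifitm2, STAT3KO minus WT, was -0.54 ± 0.11 in place of -0.13 ± 0.12 and passed (limma adjusted p = 0.00289). With it Ifitm2, STAT3KO minus TLR9KO, passed as well, at -0.41 ± 0.10 (adjusted p = 0.0153).

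Bst2 (tetherin) holds budding virus particles at the cell surface. It was 134, 179 and 222 RPKM in WT, 272, 303, 304 and 257 RPKM in TLR9KO and 402, 376, 572 and 419 RPKM in STAT3KO. The 3 groups did not overlap, rising from WT through TLR9KO to STAT3KO. Bst2 was 2.48-fold higher in STAT3KO than in WT, a difference of 1.31 ± 0.18 with the smallest adjusted p of the members (limma, 0.000263). In TLR9KO it rose by 0.69 ± 0.18 (limma adjusted p = 0.0138). STAT3KO exceeded TLR9KO by 0.62 ± 0.17 (limma adjusted p = 0.0214), a call lost without TLR9KO replicate 4 (0.0619) and with the GC and length correction.

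Rtp4, an interferon-induced transporter of membrane receptors, was 24.4, 43.6 and 40.1 RPKM in WT, 57.8, 70.2, 89.1 and 62.6 RPKM in TLR9KO and 65.0, 69.6, 94.5 and 66.8 RPKM in STAT3KO. Neither knockout overlapped WT, and the knockouts overlapped each other. The difference was 0.96 ± 0.21 in TLR9KO and 1.04 ± 0.21 in STAT3KO (limma adjusted p = 0.00657 and 0.00251).

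Of 5 enzymes acting on nucleic acids or nucleotides, or controlling translation, Samd9l rose in both knockouts and Eif2ak2 in TLR9KO. Samd9l, a restriction factor for poxviruses, was 4.41, 8.81 and 5.25 RPKM in WT, 16.3, 17.2, 18.8 and 12.1 RPKM in TLR9KO and 13.5, 9.19, 18.6 and 13.1 RPKM in STAT3KO. No knockout library overlapped WT, although STAT3KO replicate 2 came close. Samd9l rose by 1.29 ± 0.24 in TLR9KO and 1.04 ± 0.24 in STAT3KO (limma adjusted p = 0.00304 and 0.00552). Eif2ak2 encodes the kinase PKR, which stops translation on sensing double-stranded RNA. It was 5.10, 8.73 and 6.30 RPKM in WT, 11.3, 10.9, 10.5 and 9.20 RPKM in TLR9KO and 9.46, 6.16, 11.9 and 10.5 RPKM in STAT3KO. Its rise of 0.60 ± 0.20 in TLR9KO passed narrowly (limma adjusted p = 0.0416) and was lost without any 1 of the libraries of both groups except WT replicate 2.

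Rsad2 (viperin), which makes a nucleotide that ends viral RNA chains, was 32.9, 73.8 and 87.2 RPKM in WT, 85.6, 94.0, 77.8 and 84.9 RPKM in TLR9KO and 68.8, 43.7, 97.4 and 53.0 RPKM in STAT3KO. The groups overlapped, and its differences from WT were 0.51 ± 0.32 and 0.07 ± 0.32 (limma adjusted p = 0.246 and 0.872). Its neighbour Cmpk2, a nucleotide kinase, had differences of 0.43 ± 0.24 and 0.57 ± 0.24 that did not pass either. The exonuclease Isg20 reached 40.6 RPKM in STAT3KO replicate 3 against 6.02 to 21.3 RPKM in the other 10 libraries, and did not pass in any comparison.

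Among 6 genes of nuclear bodies, cell death or less defined function, Ifi27l2a and Ifi44 rose in both knockouts. Ifi27l2a, a small membrane protein, was 131, 233 and 263 RPKM in WT, 413, 434, 488 and 409.5 RPKM in TLR9KO and 596, 463, 864 and 541 RPKM in STAT3KO. All knockout libraries lay well above WT, with means 2.09 and 2.95 times the WT mean. The differences were 1.12 ± 0.25 and 1.58 ± 0.25 (limma adjusted p = 0.00652 and 0.000567). Ifi44 was 1.15, 2.91 and 2.19 RPKM in WT, 5.79, 8.60, 10.5 and 5.48 RPKM in TLR9KO and 3.69, 5.05, 8.67 and 5.96 RPKM in STAT3KO. It had the largest TLR9KO difference of the members, 1.48 ± 0.28 (3.64-fold, limma adjusted p = 0.00317), and rose by 1.14 ± 0.28 in STAT3KO (adjusted p = 0.00723), again without overlap with WT.

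Sp100, a scaffold of nuclear bodies, was 33.9, 63.4 and 44.0 RPKM in WT, 59.1, 72.8, 81.9 and 53.0 RPKM in TLR9KO and 61.5, 63.5, 96.8 and 68.3 RPKM in STAT3KO. It rose by 0.63 ± 0.22 in STAT3KO (limma adjusted p = 0.0399), although WT replicate 2 reached the STAT3KO range. The call was also lost without WT replicate 3, STAT3KO replicate 3 or STAT3KO replicate 4. Daxx, Xaf1 and Ifi35 passed in no comparison. Xaf1, an inhibitor of the cell-death inhibitor XIAP, was the most variable, at 90.2 RPKM in STAT3KO replicate 3 against 10.9 to 37.4 RPKM in the other 10 libraries.

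The galectin-related genes were abundant and near level. Lgals3bp, a secreted galectin-binding protein, was 368, 417 and 464 RPKM in WT, 415, 413, 416 and 367 RPKM in TLR9KO and 418, 426, 517 and 469.5 RPKM in STAT3KO. Lgals9, a galectin that regulates immune cells, was 188, 225 and 236 RPKM in WT, 229.6, 228, 226 and 207 RPKM in TLR9KO and 253, 252, 337 and 243 RPKM in STAT3KO. Lgals9 lay above both other groups in every STAT3KO library, but its difference from WT of 0.32 ± 0.13 did not pass (limma adjusted p = 0.0593).

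The ligands of the pathway were all nearly silent, and Ifnb1 and Ifng reached the highest values among them. None of 21 interferon ligand genes had a mean of 1 RPKM, 4 were at 0 everywhere, and the highest value other than of Ifnb1 and Ifng was 0.22 RPKM. Ifnb1, which encodes interferon beta, was 0.04, 0.36 and 0.44 RPKM in WT, 1.22, 1.39, 1.30 and 1.69 RPKM in TLR9KO and 1.10, 1.00, 1.10 and 0.72 RPKM in STAT3KO. All 8 knockout libraries lay above WT, on an estimated 1 to 48 reads per library. In a fit without the filter on low values, over 18534 symbols, Ifnb1 rose by 0.92 ± 0.12 in TLR9KO and 0.64 ± 0.12 in STAT3KO (limma adjusted p = 0.00157 and 0.00389), where 11.4% and 18.7% of all symbols rose. Its calls held without each library in turn, WT replicate 1 included, in fits added after seeing the data. With the GC and length correction the STAT3KO difference was 0.27 and did not pass (adjusted p = 0.115). Ifng, the type II interferon, was at most 1.34 RPKM and did not pass.

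Ifnar1 was 18.01 to 23.6 RPKM in WT, against 20.3 to 26.5 in TLR9KO and 12.1 to 23.7 in STAT3KO, and neither it nor Ifnar2 passed in any comparison. Of 8 tested receptor and kinase genes, 3 rose and 2 fell in STAT3KO (29.2% and 14.8% of all tested genes) and 1 rose in TLR9KO (20.0%). In STAT3KO Il10rb rose by 0.53 ± 0.14 and Tyk2, a kinase of the interferon receptor, fell by 0.69 ± 0.19 (limma adjusted p = 0.00992 and 0.0142), the latter lost without WT replicate 2 and with the GC and length correction. Ifngr2, of the interferon gamma receptor, rose by 0.44 ± 0.12 in TLR9KO and 0.36 ± 0.12 in STAT3KO (limma adjusted p = 0.0195 and 0.0342). Without WT replicate 1 or WT replicate 3 both calls were lost, and the second also without STAT3KO replicate 1, 3 or 4. Jak2 was lower in STAT3KO than in TLR9KO by a log2 difference of -0.79 ± 0.20 (limma adjusted p = 0.0184), lost without TLR9KO replicate 2 or STAT3KO replicate 2.

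Of 10 transcription factors, 0 passed the limma test in any comparison (at an unadjusted p under 0.05, 2 were higher in STAT3KO, where 33.5% of all tested genes were higher and 18.1% lower by that measure, and 0 in TLR9KO). Irf7, the amplifier of the interferon response, was 137, 272 and 308 RPKM in WT, 290.4, 308, 385 and 270.5 RPKM in TLR9KO and 324, 317, 661 and 353 RPKM in STAT3KO. Its STAT3KO libraries lay above WT, with a difference of 0.80 ± 0.31 that missed the threshold (limma adjusted p = 0.0532). Stat2 and Irf9, parts of the factor that binds the response element, differed from WT by 0.53 ± 0.23 and 0.04 ± 0.13 in STAT3KO and by 0.49 ± 0.23 and 0.03 ± 0.13 in TLR9KO. WT replicate 1 was the lowest library for both of them.

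Of 11 sensors and adaptors upstream of interferon, 3 rose and 2 fell in STAT3KO, and 3 rose and 1 fell in TLR9KO. These counts are near the shares of all tested genes, 29.2% and 14.8% in STAT3KO and 20.0% and 10.6% in TLR9KO. Ifih1, the RNA sensor MDA5, rose by 1.00 ± 0.25 in STAT3KO and 1.01 ± 0.25 in TLR9KO (limma adjusted p = 0.00881 and 0.0123), the latter lost without WT replicate 1 (0.0627) and with the GC and length correction. E330016A19Rik, the older symbol of the DNA sensor cGAS, rose by 0.86 ± 0.17 in TLR9KO and 0.57 ± 0.17 in STAT3KO (limma adjusted p = 0.00424 and 0.0214). Leaving out WT replicate 1, WT replicate 3 or STAT3KO replicate 3 ended the STAT3KO call of this gene. Tmem173, which encodes STING and acts below cGAS, was 27.4 to 42.8 RPKM in STAT3KO against 66.7 to 82.5 RPKM in WT and fell by 1.00 ± 0.27 (limma adjusted p = 0.0114). Against TLR9KO, where Tmem173 was 43.2 to 113 RPKM, the difference was -1.05 ± 0.25 (adjusted p = 0.0131). Ticam1, the TLR3 adaptor, fell by 0.32 ± 0.08 in TLR9KO (limma adjusted p = 0.0142), a call lost without WT replicate 1 or WT replicate 3 and with the GC and length correction, and was higher by 0.36 ± 0.08 in STAT3KO than in TLR9KO (adjusted p = 0.00885).

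Of 8 negative regulators 1 fell in STAT3KO and 2 rose in TLR9KO (14.8% and 20.0% of all tested genes), and 3 were lower in STAT3KO than in TLR9KO (9.46%), of which Socs3 alone passed without each library in turn. Socs3, an inhibitor of cytokine receptor signalling and a known STAT3 target, was 107, 116 and 108 RPKM in WT, 94.4, 106, 141 and 158 RPKM in TLR9KO and 19.4, 24.1, 30.2 and 20.0 RPKM in STAT3KO. It fell by 2.21 ± 0.19 against WT (limma adjusted p = 2.18e-05), with no overlap. Ptpn2, a phosphatase of the Jak and Stat proteins, rose by 0.88 ± 0.16 in TLR9KO (limma adjusted p = 0.00218), a call lost with the GC and length correction. Socs1, Ptpn2 and Pias1 gave calls that rest on few libraries. Socs1 was lower in STAT3KO than in TLR9KO by -0.96 ± 0.26 (log2; limma adjusted p = 0.0245), lost in 5 of the 8 fits that leave out 1 library (without TLR9KO replicate 2, 3 or 4 or STAT3KO replicate 1 or 4), and Ptpn2 by -0.50 ± 0.14 (0.0301), lost in 6 of 8 (all but TLR9KO replicate 1 and STAT3KO replicate 3). Pias1 rose by 0.28 ± 0.09 in TLR9KO (limma adjusted p = 0.0359), lost without any 1 of WT replicates 1 and 3 and TLR9KO replicates 2, 3 and 4.

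Of 26 tested interferon-stimulated genes outside the 38 members, 9 rose and 0 fell in STAT3KO, and 10 rose and 1 fell in TLR9KO. Of all tested genes 29.2% and 20.0% rose, so that the STAT3KO count is near the background. The median differences were 0.26 and 0.67, against 0.09 and 0.04 over all tested genes. Slfn8, of the Schlafen family, was 2.38, 4.91 and 2.81 RPKM in WT, 20.7, 19.1, 23.1 and 14.0 RPKM in TLR9KO and 5.88, 9.57, 10.6 and 6.51 RPKM in STAT3KO. Its 3 groups did not overlap, and STAT3KO was lower than TLR9KO by a log2 difference of -1.16 ± 0.22 (limma adjusted p = 0.00504). Pnpt1, an RNA-degrading enzyme of mitochondria, was 3.78 to 4.76 RPKM in WT, against 7.97 to 10.1 in TLR9KO and 6.85 to 9.86 in STAT3KO, with differences of 0.98 ± 0.12 and 0.84 ± 0.12 (limma adjusted p = 0.000443 and 0.000347). Mndal rose by 1.87 ± 0.31 and 1.58 ± 0.31, and D14Ertd668e, the older symbol of Phf11d, by 1.30 ± 0.26 and 1.57 ± 0.26 (TLR9KO, STAT3KO). The calls of these 4 genes against WT held without each library in turn, WT replicate 1 included.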

How the data were processed

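RNA of 11 libraries of CD11b-positive myeloid cells was measured. The deposited values are RPKM per gene symbol, per the file headers (TLR9KO replicate 4 has a header without a unit and was read as RPKM because its range was like that of the other files). Per the submitters' processing notes, CASAVA 1.7, TopHat 1.3.1, Bowtie 0.12.7, Partek and build mm9 were used. Neither the annotation nor the handling of reads with several matches is given in those notes.

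Genes averaging 1 RPKM or more over the 11 libraries were tested on log2(RPKM + 1), which understates changes of low genes. A model with 3 group means over all 11 libraries was fitted with limma 3.58.1 (eBayes with trend) in R 4.3.3, with two-sided tests, Benjamini-Hochberg adjustment over 10557 genes and a threshold of 0.05. The script was tested on simulated data. Errors beside RPKM are SDs and beside log2 differences moderated standard errors. Depth was estimated from microRNA genes, whose values are steps of 1 read (within 0.15). Lengths and GC content are from GENCODE M21, used for the correction and read estimates. Summaries used Python 3.11.15, pandas 2.3.3, numpy 2.4.6 and, for plots, matplotlib 3.10.9.

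Members passing in any comparison and the 6 most abundant are given per library. Up to 4 passing genes per pathway list with the smallest p were named, plus Stat2, Irf9, Irf7, Ifnar1, Ifnar2, Ifnb1, Ifng, Stat3 and Tlr9. Rsad2, Isg20, Xaf1, Siglech, Cd79b, Hba-a1, Pf4, Ppbp, Ly6c2, Chi3l3 and Vcan were named after their values were seen. Some genes of the fixed lists are not reported here. The members and lists were chosen with earlier results of these data known. Alternatives were the pseudocount (0.1), no filter, median-ratio scaling, a GC and length correction, library weights, no trend, only 2 groups in the fit, a replicate block and leaving out each library.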

Additional observations from a re-analysis of the deposited data

Results flagged for a closer look

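Single libraries stood far from the rest of their group of 4 in 4 of 78 checks, each judged by the gap to the nearest library over the group's range on the log2 scale. Chance alone flags about 1 in 20 such groups. Oasl2 was 129.68 RPKM in STAT3KO replicate 3 against 89.3 to 91.9 RPKM in the other STAT3KO libraries. Lgals9 was 336.85 RPKM in the same library against 243.3 to 253.0 RPKM. In TLR9KO replicate 4, Lgals3bp was 366.7 RPKM against 413.1 to 415.8 RPKM, and Lgals9 was 206.55 RPKM against 226.2 to 229.6 RPKM. WT, with 3 libraries, was not checked this way.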

How the results depend on the processing

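The differences of the member mean from WT kept their sign, and moved by less than 1 SD, under all alternatives run. Between the knockouts that difference was 0.05 and had no stable sign: it was -0.12 without STAT3KO replicate 3, and -0.02 with the GC and length correction (member mean difference, STAT3KO minus TLR9KO). Leaving out 1 library in turn gave 9 to 22 members past the threshold for STAT3KO minus WT (18 in full), 6 to 16 for TLR9KO minus WT (14) and 1 to 4 for STAT3KO minus TLR9KO (3). The lowest counts came without WT replicate 1, WT replicate 1 and TLR9KO replicate 4, and without TLR9KO replicate 2 the count for TLR9KO minus WT was 9. Other pathway genes gave 10 to 23 for TLR9KO minus WT (18 in full; 11 without WT replicate 3) and 5 to 15 for STAT3KO minus TLR9KO (10; 5 without STAT3KO replicate 1, and 6 without TLR9KO replicate 2 or 4).

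The GC and length correction left 11 members for STAT3KO minus WT, 6 members and 9 other pathway genes for TLR9KO minus WT, and turned 2 differences: Ifitm3, STAT3KO minus WT, to -0.04 and Pias1, TLR9KO minus WT, to -0.01. Over all genes TLR9KO minus WT then had 934 higher and 715 lower calls, against 2107 and 1122, and without WT replicate 1 it had 1383 and 602. Against WT, library weights lost 0 member calls and added 8 in STAT3KO and 7 in TLR9KO, where 34.1% and 26.3% of all tested genes rose. WT replicate 1 had a weight of 1.69, and WT replicate 2 the lowest of the 11 libraries, 0.35. Between the knockouts, library weights raised the members past the threshold to 6 and all calls to 2297 higher and 1510 lower, against 1410 and 999. There, without TLR9KO replicate 4, 869 and 708 genes passed. The causes were not tested.

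A pairing of libraries by replicate number was not evident, and the labels give none. Deviations of same-numbered libraries correlated at -0.29 to 0.49, above 0.1 in 4 of 10 pairs, and 2 of 11 libraries correlated best with their own number. Libraries of different numbers correlated at -0.61 to 0.53, above 0.1 in 9 of 30 pairs. Such correlations cannot exclude a pairing, because other differences between libraries enter them too. A replicate block gave 24 members for STAT3KO minus WT, 15 for TLR9KO minus WT and 3 between the knockouts. With the block and the GC and length correction together, TLR9KO minus WT had 4 members and 600 higher and 455 lower calls over all genes. Depth limits the lowest members, Oas1b, Ifitm1, Mx2 and Ifi44, with about 43, 53, 85 and 140 reads in their lowest library, and Ifnb1 most.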
